A study of Mus musculus with 6 samples.

Results

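The genes described here handle extracellular nucleotides and nucleosides in the absorptive cells of the duodenal villus. The 7 genes, Enpp3, Nt5e, Ada, Xdh, Slc28a1, Slc28a2 and Slc29a1, were chosen by name for their function, with earlier results of these data known. They are among 22180 genes that had a probe set with 1 gene symbol. Where a gene had several such probe sets, as only Slc29a1 did, the brightest on average over the 6 arrays was taken. All 7 passed the filter on dim genes, which asked for a signal over 5.17, the median of the whole table, on at least 3 of the 6 arrays and which 13174 genes passed.

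The duodenum of C57Bl/6-background mice, 10 weeks old, was profiled on whole-transcript arrays, 1 for each sample: 3 were wild-type and 3 were VDR-null, without the receptor for vitamin D. The sources used here do not name the null allele, the sex or the diet of the mice, or what tissue layers were taken. The labels do not say in words that the samples of a group came from separate mice, so the p-values measure the spread between these samples. The design sets the genotypes against each other to find duodenal transcripts whose level depends on this receptor. Values are log2 signals: a difference of 1 is a 2-fold difference in signal.

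Nucleotides reach the gut lumen with food, shed cells and bacteria. On the surface of enterocytes, ectoenzymes trim them: pyrophosphatases such as ENPP3 cut nucleoside triphosphates to monophosphates, and the 5'-nucleotidase CD73, the product of Nt5e, removes the last phosphate from AMP to give adenosine. Sodium-coupled concentrative transporters of the SLC28 family and equilibrative transporters of the SLC29 family move nucleosides across the membrane. Inside the cell, adenosine deaminase (Ada) makes inosine from adenosine, and xanthine dehydrogenase (Xdh) carries out the last steps from hypoxanthine to urate. In the mouse intestine several of these genes are best known from the upper villus, where enterocytes are old and about to be shed.

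No difference between the genotypes passed the test for any of the 7 genes. In 6 of them the VDR-null mean was the higher, by 0.32 to 1.04 on the log2 scale, and in Slc29a1 it was lower by 0.22, but the arrays of the genotypes overlapped in all 7. What the genes showed instead was a wide spread among samples of the same genotype, in both genotypes for 5 of them and among VDR-null samples alone for Nt5e. Across the 6 genes other than Slc29a1, VDR-null replicate 1 was the highest array for each, and wild-type replicate 1 the lowest for 5. Over all 13174 tested genes limma called 0% past an adjusted p of 0.05, with 689 genes (5.23%) at an unadjusted p under 0.05, and 44% were higher in VDR-null duodenum. None of the 7 genes had an unadjusted p under 0.05. The median difference was 0.57 over the 7 genes and -0.03 over all tested genes. Arrays did not overlap between the genotypes in 11.1% of all tested genes and in 0 of the 7.

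The targeted gene does not check the labels here. Vdr lay between 10.72 and 11.11 on all 6 arrays, and the sources used here do not say which part of the gene is deleted. The tissue markers were present: the brush border genes Lct (lactase), Sis (sucrase-isomaltase) and Fabp2 (intestinal fatty acid binding protein) lay above 5.17 on every array. Lct was close to that level on wild-type replicate 1, at 5.74, against 9.49 to 11.69 on the other 5 arrays. Some arrays stood apart. The mean of 19 brush border markers, relative to the 6 arrays, was -1.45 on wild-type replicate 1 and reached 0.99 on VDR-null replicate 1, against -0.12 to 0.41 on the other 4. These replicate 1 arrays also lay at the ends of the first principal component, which held 62.2% of the variance. Wild-type replicate 1 had the highest mean of Paneth cell markers, 0.77. It also had the highest mean of gastric and Brunner gland markers, 1.24, with 0.97 on wild-type replicate 2. VDR-null replicate 3 was the highest array for pancreatic acinar genes, with a mean of 2.83 over 3 bright markers, against -1.10 to 0.45 on the other 5. In whole tissue, fewer cells of a type and less RNA per cell cannot be told apart. A value is therefore given with and without these arrays where a statement rests on them.

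**Figure D1:**
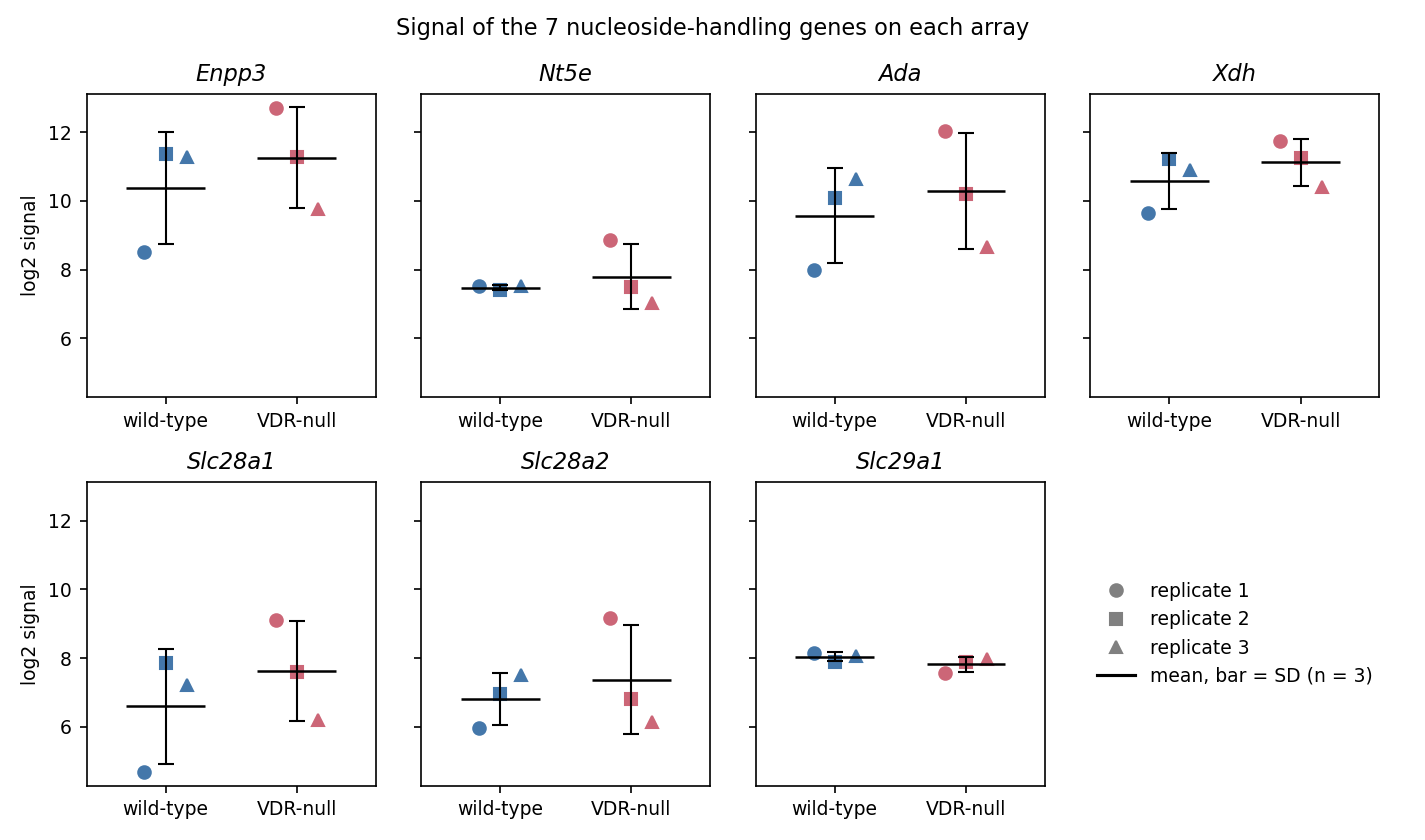
Log2 signal (vertical axis) of each of the 7 genes on the 3 wild-type (blue) and 3 VDR-null (red) arrays; symbols give the replicate, the long line the mean and the bar the SD (n = 3). The groups overlap in every gene, with VDR-null replicate 1 highest in 6 genes and lowest in Slc29a1.

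Among the ectoenzymes, Enpp3, the surface pyrophosphatase, varied over a wide range in both genotypes. In replicate order, as for all values below, the wild-type arrays gave 8.50, 11.36 and 11.29, the VDR-null arrays 12.71, 11.29 and 9.77. The extremes are the replicate 1 arrays, 4.21 apart, an 18.5-fold range of signal. Only 0.129% of tested genes had a larger range over the 6 arrays. The means were 10.39 ± 1.63 (SD, n = 3) in wild-type and 11.26 ± 1.47 (SD, n = 3) in VDR-null duodenum. Their difference, 0.87 ± 0.97 (SE), was smaller than the SD within either genotype (95% confidence interval -1.43 to 3.18; limma adjusted p = 0.76). It was -0.07 when wild-type replicate 1 was left out and -0.79 when both replicate 1 arrays were.

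Nt5e, which encodes the adenosine-forming enzyme CD73, behaved differently from Enpp3 on the wild-type arrays. The wild-type arrays gave 7.52, 7.40 and 7.52, a range of 0.12, the VDR-null arrays 8.87, 7.49 and 7.04, a range of 1.83. Here wild-type replicate 1 was not low, and VDR-null replicate 1 alone stood above the other 5 arrays. The difference was 0.32 ± 0.43 (SE; 95% confidence interval -0.70 to 1.33; limma adjusted p = 0.806) and turned to -0.22 ± 0.15 (SE) without VDR-null replicate 1.

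The intracellular enzymes followed the wide pattern. Ada, which removes adenosine, gave 8.00, 10.08 and 10.65 on wild-type arrays, against 12.03, 10.21 and 8.66 on VDR-null arrays. The lowest and the highest array, again the replicate 1 arrays, were 4.03 apart, a 16.3-fold range. Among the VDR-null arrays alone the range was 3.38. The VDR-null mean was 1.65-fold higher, a log2 difference of 0.72 ± 0.97 (SE; limma adjusted p = 0.806) with a 95% confidence interval of -1.58 to 3.02. Leaving out wild-type replicate 1 gave -0.07, leaving out VDR-null replicate 1 gave -0.15, and leaving out both gave -0.94.

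Xdh, the urate-forming enzyme, also had its lowest and highest signal on the replicate 1 arrays, over a narrower range. Its signals were 9.66, 11.21 and 10.90 (wild-type), then 11.75, 11.24 and 10.40 (VDR-null), 2.09 from lowest to highest. The replicates numbered 2 of the genotypes lay close together, at 11.21 and 11.24. The difference was 0.54 ± 0.47 (SE; 95% confidence interval -0.59 to 1.66; limma adjusted p = 0.717), which became 0.07 when wild-type replicate 1 was left out and -0.24 when both replicate 1 arrays were.

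Both concentrative transporters had their highest signal on VDR-null replicate 1. Slc28a1 encodes CNT1, which prefers pyrimidine nucleosides. It gave 4.69, 7.86 and 7.23 on wild-type arrays, against 9.10, 7.59 and 6.20 on VDR-null arrays. Its range of 4.41 was the widest of the 7 genes, and only 0.0911% of tested genes exceeded it. Wild-type replicate 1 lay below 5.17, the median of the whole table, where background limits the signal. The VDR-null mean was 2.05-fold higher, a log2 difference of 1.04 ± 0.98 (SE; limma adjusted p = 0.729) with a 95% confidence interval of -1.29 to 3.37. Leaving out wild-type replicate 1 gave 0.08, leaving out VDR-null replicate 1 gave 0.30, and leaving out both gave -0.65.

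Slc28a2 encodes CNT2, which prefers purine nucleosides such as adenosine and inosine. Its signals were 5.98, 6.95 and 7.50 (wild-type), then 9.16, 6.82 and 6.15 (VDR-null). VDR-null replicate 1 stood 1.66 or more above every other array, while the other VDR-null arrays lay within the wild-type range. The difference was 0.57 ± 0.78 (SE; 95% confidence interval -1.28 to 2.41; limma adjusted p = 0.809), and it turned to -0.32 without VDR-null replicate 1 and to -0.74 without both replicate 1 arrays.

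Slc29a1, which encodes the equilibrative transporter ENT1, present on most cell types, went the other way and varied less than the other 6 genes. The wild-type arrays gave 8.16, 7.90 and 8.07, the VDR-null arrays 7.58, 7.89 and 7.99. VDR-null replicate 1 was its lowest array and wild-type replicate 1 its highest. The range was 0.58 on the log2 scale, against a median range of 0.43 over all tested genes. The difference was -0.22 ± 0.13 (SE; 95% confidence interval -0.54 to 0.10; limma adjusted p = 0.683), and 0.13 and 0.21 were the SDs of the genotypes. It kept its sign with each array left out, between -0.31 and -0.10, and was -0.05 without both replicate 1 arrays. A further probe set for this gene was dim on all arrays, between 3.63 and 3.89, and was not used.

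**Figure D2:**
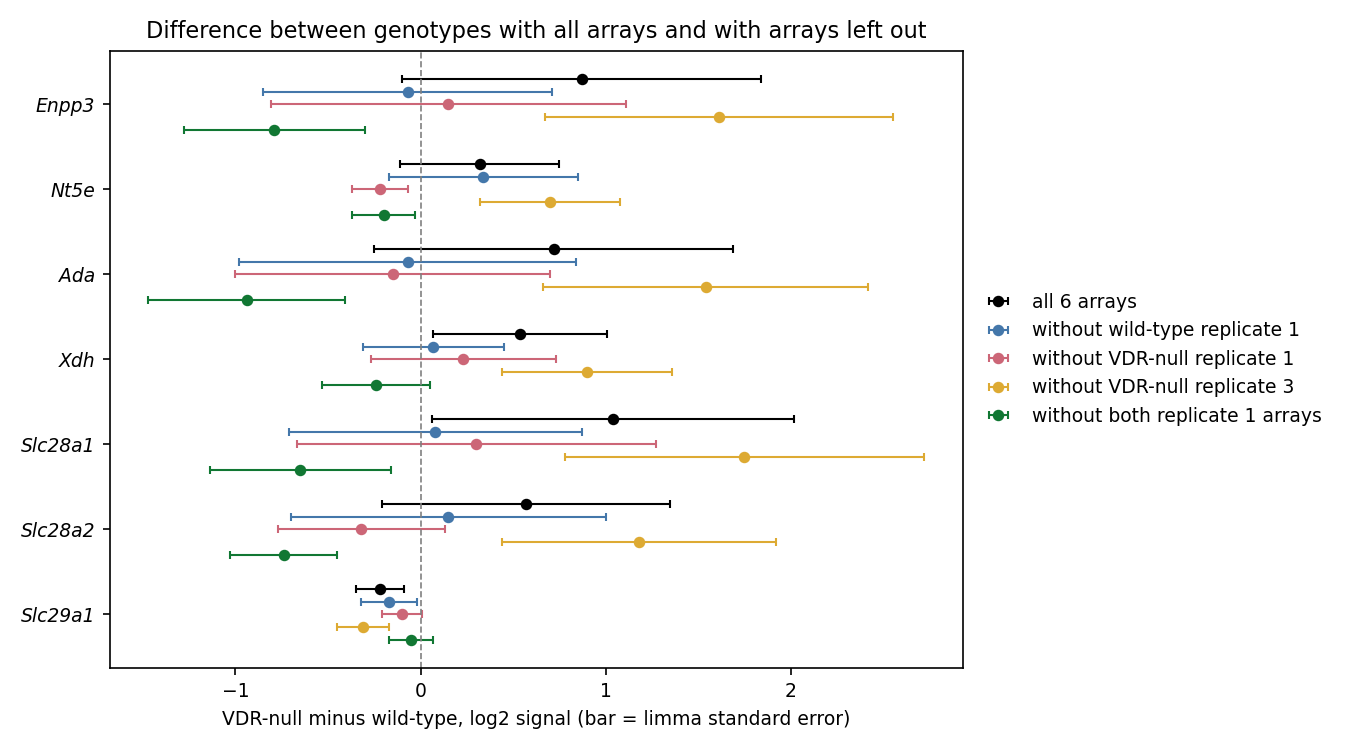
Difference of mean log2 signal, VDR-null minus wild-type (horizontal axis), for each of the 7 genes with all 6 arrays and with arrays left out; bars are limma standard errors. Without both replicate 1 arrays (green) all 7 differences lie below 0, while with all arrays 6 lie above it.

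Leaving out arrays moved the whole group. With all arrays 6 of the 7 genes were higher in VDR-null duodenum. The count was 4 when wild-type replicate 1 was left out, 3 when VDR-null replicate 1 was, and 0 when both were. Without VDR-null replicate 3, the low array of that genotype, the differences of Slc28a1, Enpp3, Ada and Slc28a2 grew to 1.75, 1.61, 1.54 and 1.18. None of these values passed the limma threshold. With both replicate 1 arrays and VDR-null replicate 3 left out, which leaves 2 wild-type arrays against 1 whose spread is assumed to be that of the wild-type pair, the differences ran from -0.40 for Slc28a2 to 0.18 for Xdh. That choice of arrays was made after the data were seen.

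The 6 genes that were higher in VDR-null duodenum varied together over the arrays, Nt5e least closely. Over the 15 pairs of them, Pearson's r over the 6 arrays ran from 0.59, between Nt5e and Xdh, to 0.99, for each pair among Slc28a1, Enpp3 and Xdh. Slc29a1 ran against each of them, with r between -0.88 and -0.79. The 6 genes were grouped by the sign of a difference that reversed without both replicate 1 arrays. Positive r among them is therefore partly set by the grouping. The arrays are shared by all pairs and span both genotypes, so these values describe 6 samples and carry no p. In 1778 of all tested genes (13.5%) VDR-null replicate 1 was the highest and wild-type replicate 1 the lowest array. Of the 7 genes, 5 had those extremes (Enpp3, Ada, Xdh, Slc28a1 and Slc28a2), and Slc29a1 had the opposite extremes, which 18% of all tested genes had.

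The same extremes were seen in the brush border markers. All 19 measured markers of the list, among them Lct, Sis, Anpep (aminopeptidase N) and Slc5a1 (the sodium-glucose transporter), had VDR-null replicate 1 highest and wild-type replicate 1 lowest. Across the 6 arrays Xdh followed the mean of these markers most closely, with Pearson's r of 0.97 (exact permutation p = 0.00139, two-sided, adjusted over the 7 genes 0.00973) and Spearman's rho of 1 (exact permutation p = 0.00278, adjusted 0.0195). Without the replicate 1 arrays, which lie farthest from the median of that mean, r was 0.86 over the other 4. For Slc28a1 and Enpp3 r was 0.96 and 0.95 (exact permutation p = 0.00417 and adjusted p = 0.00973 for each; rho 0.94 for both, exact permutation p = 0.0167 and adjusted p = 0.0292). Over the other 4 arrays it was 0.75 and 0.67. Ada had an r of 0.88 (exact permutation p = 0.0208, adjusted 0.0364) and a rho of 0.83 (exact permutation p = 0.0583, adjusted 0.0816), and r was 0.50 over the other 4 arrays, so its relation rests largely on the replicate 1 arrays. Slc28a2 (r 0.78, exact permutation p = 0.103, adjusted 0.12; rho 0.77, exact permutation p = 0.103, adjusted 0.12; r 0.22 over 4 arrays) and Nt5e (r 0.53, exact permutation p = 0.247; rho 0.37, exact permutation p = 0.497; adjusted values the same; r 0.62 over 4 arrays) showed no relation past the threshold. Slc29a1 ran against the brush border mean (r -0.87, exact permutation p = 0.0431, adjusted 0.0603; rho -0.94, exact permutation p = 0.0167, adjusted 0.0292; r -0.76 over 4 arrays). Within genotypes, with each array taken relative to its genotype's mean, r was 0.99 for Slc28a1, 0.98 for Enpp3 and Xdh, 0.92 for Ada, 0.79 for Slc28a2, 0.48 for Nt5e and -0.80 for Slc29a1. Both replicate 1 arrays are kept in these values, which are therefore not independent of the r over all 6 arrays. Permuting the arrays within genotypes gave the smallest p that this exact test allows, 0.0278, for Slc28a1, Enpp3 and Xdh, 0.0649 after adjustment over the 7 genes. For the other 4 genes the exact p ran from 0.0556 to 0.25 (adjusted 0.0778 to 0.25). This test was added after seeing the data. The brush border mean put the 6 arrays in the same order as the first principal component of all tested genes. The share of all tested genes with an r as large was not counted, so these relations cannot be called particular to the 7 genes.

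**Figure D3:**
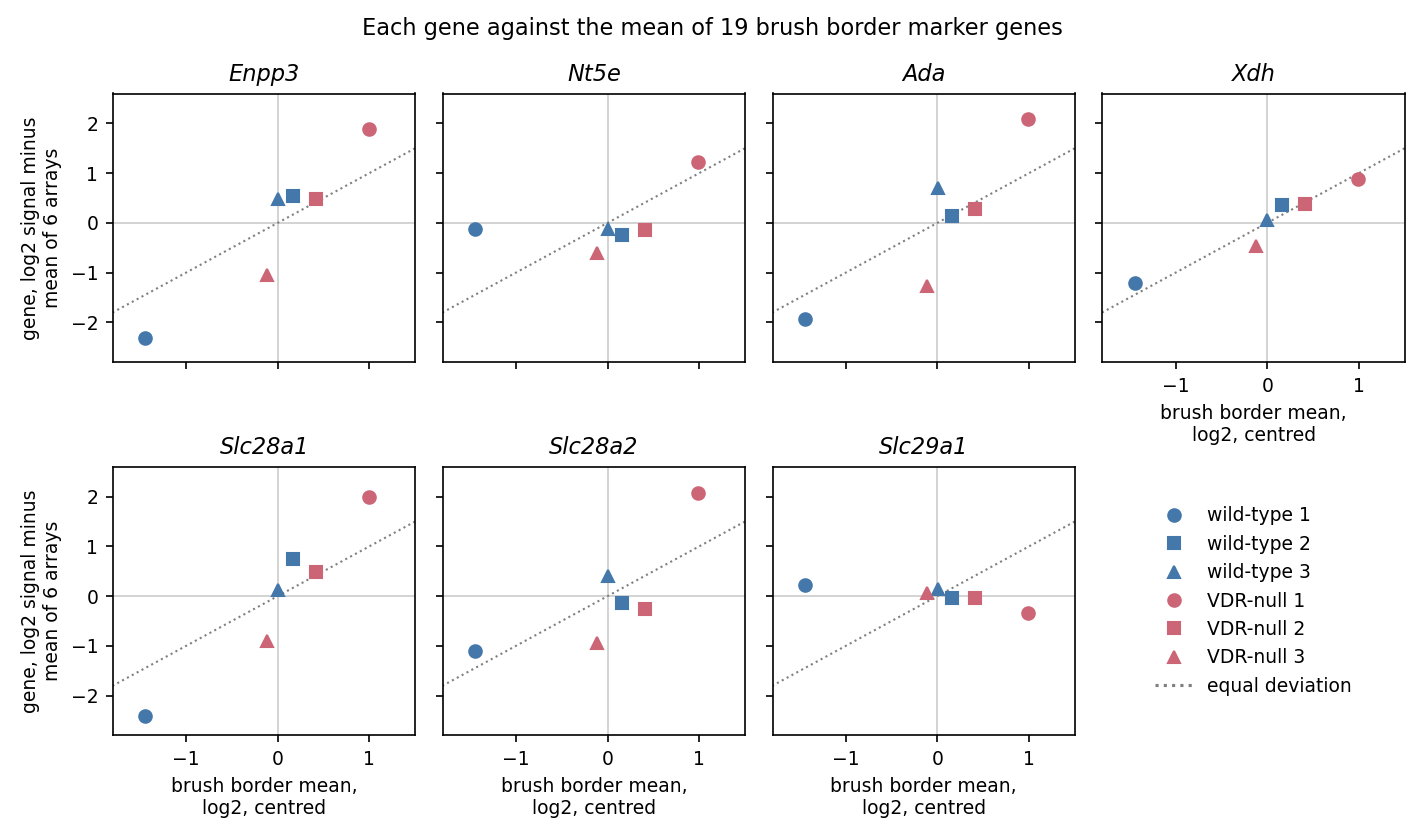
Deviation of each gene from its 6-array mean (vertical axis, log2) against that of the mean of 19 brush border markers (horizontal axis, log2) on the wild-type (blue) and VDR-null (red) arrays, with symbols for replicates and a dotted line of equal deviation. Xdh lies along the line, Enpp3, Ada and Slc28a1 spread beyond it at both ends, and VDR-null replicate 3 lies below it for the 6 genes other than Slc29a1.

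The genes did not all move by the amount of the brush border mean. On VDR-null replicate 1, Ada lay 2.09, Slc28a2 2.07, Slc28a1 1.99 and Enpp3 1.89 above their own 6-array means, where the brush border mean was 0.99. Nt5e lay 1.23 and Xdh 0.89 above. On wild-type replicate 1 the brush border mean was -1.45, with Slc28a1 at -2.42, Enpp3 at -2.32 and Ada at -1.94, but Nt5e at -0.12. On VDR-null replicate 3 the brush border mean was only -0.12, while Ada stood at -1.28, Enpp3 at -1.05, Slc28a2 at -0.94 and Slc28a1 at -0.91. That array also carried the pancreatic acinar signal, and its part in these values was not tested. When limma was given the brush border mean as a further term, all 7 differences were below 0, among them Ada at -0.94 ± 0.47 (SE), Enpp3 at -0.89 ± 0.24, Slc28a1 at -0.75 ± 0.23 and Xdh at -0.32 ± 0.14, each with a limma adjusted p of 0.999.

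Markers of other cells were set beside the 7 genes, because some of these genes are also active outside enterocytes. All 6 bright T cell genes of 7 listed shared the extremes of the brush border markers, with a mean level from -1.17 to 0.40 on wild-type and from -0.48 to 1.02 on VDR-null arrays. Lymphocytes carry CD73 and adenosine deaminase, and the part of T cells in these values was not tested. ENPP3 is known as a surface marker of basophils and mast cells. Of the 6 listed markers of these cells, Fcer1a, Cpa3 and Tpsb2 were dim on every array, while Mcpt1, Mcpt2 and Kit passed the filter. The mean of these 3 ran from -0.49 to 0.20 on wild-type and from -0.36 to 0.50 on VDR-null arrays. It was highest on VDR-null replicate 2, where Mcpt1 was 6.48 and Mcpt2 5.86. The part of mast cells and basophils in the Enpp3 values was not tested. Endothelial markers, 5 of 5 bright, had their highest mean, 0.43, on wild-type replicate 1 and -0.22 on VDR-null replicate 1. Crypt and division markers, 11 of 12 listed, had means of 0.36 and -0.37 there. Slc29a1 shared that direction. With 3 arrays a genotype an exact permutation test over arrays cannot go below p = 0.1, so the 14 marker lists are given by their values. The VDR-null mean minus the wild-type mean was 0.86 for brush border, 0.76 for T cell, 1.76 for pancreatic acinar and -1.04 for gastric and Brunner gland markers. The first 2 rest largely on the replicate 1 arrays, with brush border at -1.45 and 0.99 and T cell at -1.17 and 1.02. On the remaining arrays the genotypes overlapped in both lists. The acinar mean was 2.83 on VDR-null replicate 3, against 0.45 and -0.64 on the other VDR-null arrays.

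**Figure D4:**
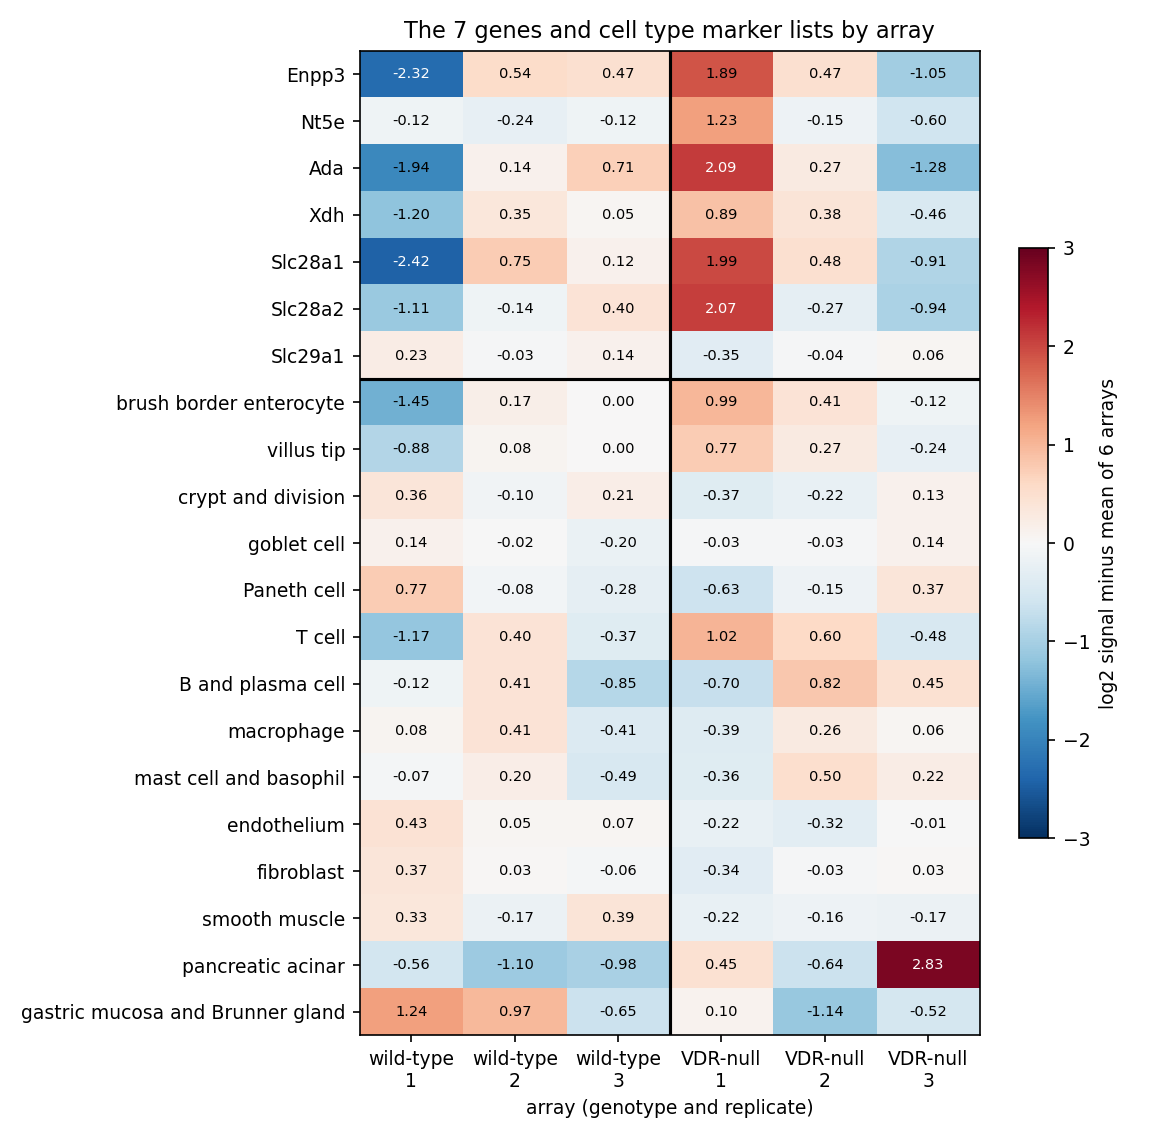
Log2 signal minus the mean of the 6 arrays, for the 7 genes (above the line) and for the mean of each cell type marker list (below it), by array; red is above and blue below the 6-array mean. The 6 genes other than Slc29a1 share their signs with the brush border row on wild-type replicate 1 and on VDR-null replicate 1, and VDR-null replicate 3 stands apart in pancreatic acinar genes at 2.83.

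The genes closest in pattern were found by Pearson's r over the 6 arrays among all tested genes with a name of their own. For Xdh they were Gzma (a granule protease of cytotoxic lymphocytes, r 0.998), Slc4a4 (a sodium bicarbonate cotransporter, 0.997) and Apob (the structural apolipoprotein of chylomicrons, 0.997). For Slc28a1 they were Abcd3 (a peroxisomal transporter), Kifc3 (a kinesin) and Cdr2, with r from 0.995 to 0.998. For Enpp3 they were Ahcyl1, Acbd4 and Aspscr1, with r from 0.995 to 0.996. For Ada they were Tmem160, Muc3 (a membrane mucin of enterocytes) and Lmo7, with r from 0.990 to 0.999. For Slc28a2 they were Snx7 (a sorting nexin), Arnt2 and Rab5b (an endosomal GTPase), with r from 0.989 to 0.995. For Nt5e they were Fam83c, Fmo1 (a flavin monooxygenase) and Rapgef2, with r from 0.989 to 0.997. For Slc29a1 they were Pabpc1 (the poly(A)-binding protein), Sumo2 and Ubap2, with r from 0.998 to 0.999. With so many genes and 6 arrays such values are reached by the search itself, so they are a description of likeness only.

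Upstream sequences are shown for Slc28a2, Enpp3 and Ada, 3 of the 4 genes with the widest ranges, because the windows before their starts differ in base composition and in the letters they hold. RefSeq start sites on GRCm38.p6 were matched for 6 of the 7 genes, all but Xdh, and the 250 bases before each start were searched on both strands. Capitals mark the letters AGATAA (bound by the family of GATA factors), CATAAA (bound by CDX factors), TATAAA (the core of the TATA box) and GGGCGG (known as the GC box), in either orientation.

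Slc28a2 (chr2:122426185-122426434, plus strand): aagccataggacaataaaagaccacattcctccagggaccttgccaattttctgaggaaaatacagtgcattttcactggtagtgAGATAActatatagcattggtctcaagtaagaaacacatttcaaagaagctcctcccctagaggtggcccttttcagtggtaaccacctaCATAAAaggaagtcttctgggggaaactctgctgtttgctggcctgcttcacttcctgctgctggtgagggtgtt
Enpp3 (chr10:24836196-24836445, minus strand): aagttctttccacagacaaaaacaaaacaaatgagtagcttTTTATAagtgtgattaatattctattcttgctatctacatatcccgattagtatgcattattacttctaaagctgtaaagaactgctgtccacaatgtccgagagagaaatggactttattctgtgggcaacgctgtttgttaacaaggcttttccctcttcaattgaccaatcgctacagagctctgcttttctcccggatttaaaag
Ada (chr2:163750240-163750489, minus strand): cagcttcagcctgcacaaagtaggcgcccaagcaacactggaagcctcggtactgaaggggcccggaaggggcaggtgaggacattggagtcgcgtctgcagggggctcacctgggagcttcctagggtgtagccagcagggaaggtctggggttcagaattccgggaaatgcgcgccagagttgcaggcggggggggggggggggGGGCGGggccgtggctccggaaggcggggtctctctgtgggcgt

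The window of Slc28a2 held no CG dinucleotide and was 45.2% G and C, with an AGATAA from 165 to 160 bases and a CATAAA from 75 to 70 bases before the start. Among all 32851 windows of this length, 9.99% held the former and 10.8% the latter. Of the 8 windows listed for Slc29a1, 1 held both as well. There AGATAA lay on the reverse strand, from 236 to 231 bases before the start, and CATAAA from 88 to 83. The Enpp3 window was 36.8% G and C with 5 CG dinucleotides. Its only match was a TATAAA on the reverse strand, from 209 to 204 bases before the start, letters that 12.4% of all windows held. The Ada window was 67.2% G and C with 14 CG dinucleotides, against medians of 52.4% and 6 over all windows, and held a GGGCGG, as 32.7% of windows did. The windows of Nt5e (72% G and C, 21 CG dinucleotides) and Slc28a1 (60.4%, 4) held GGGCGG as well, and so did several of those of Slc29a1. The vitamin D receptor's direct repeat, a pair of hexamers with a spacer of 3 bases between them, was in none of the windows of the 6 genes and in 0.0122% of all windows. Each hexamer was taken as AGGTCA, the common form of the receptor's element, or as the variant AGTTCA. A lone hexamer of either form was present in 24.2% of all windows, in 3 of the 8 windows listed for Slc29a1 and in none of those of the other genes. GTTAAT, which is part of an HNF1 site, was in 6.43% of all windows and had no match here. CAAAGTCCA, an HNF4 site, was in 0.384% of all windows and had no match here either. A match is a description of letters and not a binding site.

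The other genes of nucleotide and nucleoside handling were taken from lists made by function, also with earlier results of these data known. None of the 66 tested genes in these lists passed the limma threshold, as none did among all genes, and 2 had an unadjusted p under 0.05, against 5.23% of all tested genes. Of the 10 tested genes listed under extracellular nucleotide hydrolysis VDR-null duodenum had 5 higher and 5 lower, with a median difference of 0.24. The list was not limited to enzymes of the cell surface. The higher ones were Akp3 and Alpi (intestinal alkaline phosphatases, 0.66 and 0.56) and the nucleoside triphosphate diphosphohydrolases Entpd5, Entpd7 and Entpd8. Entpd8 gave 8.20, 8.79 and 8.72 on wild-type arrays, against 9.53, 9.03 and 8.67 on VDR-null arrays (difference 0.51 ± 0.25, SE; limma adjusted p = 0.683). Entpd7 differed by 0.59 ± 0.32 (limma adjusted p = 0.683). In these 5 genes VDR-null replicate 1 was again the highest and wild-type replicate 1 the lowest array. Without both replicate 1 arrays the median of the list was 0.04, with Akp3 at -0.50 and Alpi at -0.16.

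Nucleotide receptors had small differences, and no adenosine receptor was tested. Of the 5 tested P2 receptors 4 were higher and 1 lower, with a median difference of 0.05. P2ry1 differed by 0.15 ± 0.10 (SE) and P2ry2 by 0.08 ± 0.09 (limma adjusted p = 0.683 and 0.76). Adora3 and P2ry4 were dim on all 6 arrays, and Adora1, Adora2a and Adora2b were not analysed here. None of the tested receptors had the extremes of the brush border markers.

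Among the other transporters 4 of 6 genes were higher, with a median difference of 0.07. Slc28a3 encodes CNT3, the concentrative transporter for both purine and pyrimidine nucleosides. Its signals were 7.96, 7.98 and 7.92 (wild-type), then 7.83, 8.33 and 8.35 (VDR-null) (0.22 ± 0.15, SE; limma adjusted p = 0.684). VDR-null replicate 1 was its lowest array, unlike for Slc28a1 and Slc28a2. Slc43a3, a purine nucleobase transporter, differed by -0.28 ± 0.18 (limma adjusted p = 0.683). Slc23a4, of the nucleobase transporter family, gave 8.33, 8.52 and 8.86 on wild-type arrays, against 9.93, 8.26 and 8.06 on VDR-null arrays. As for Slc28a2, VDR-null replicate 1 alone lay above the wild-type arrays, and the difference of 0.18 turned to -0.41 without it.

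In purine breakdown and salvage 7 of 15 tested genes were higher and 8 lower, with a median of -0.07. Gda, the guanine deaminase, had the widest difference and a spread like that of the transporters. Its signals were 7.76, 10.21 and 10.08 (wild-type), then 11.74, 10.38 and 9.40 (VDR-null), a difference of 1.15 ± 0.80 (SE; limma adjusted p = 0.684). It was -0.26 without both replicate 1 arrays. Gda is named after its values were seen. Pnp, the purine nucleoside phosphorylase that follows adenosine deaminase, differed by 0.25 ± 0.12 and Ampd2, an AMP deaminase, by -0.30 ± 0.15 (limma adjusted p = 0.683 for both). Adenosine kinase, Adk, which returns adenosine to AMP, gave 8.24, 8.20 and 8.20 on wild-type arrays, against 7.96, 8.10 and 8.13 on VDR-null arrays (-0.15 ± 0.09; limma adjusted p = 0.683). Its arrays did not overlap between the genotypes, and neither did those of Nt5c, a cytosolic nucleotidase (-0.15 ± 0.09). These 2 of 15 genes are 13.3%, against 11.1% of all tested genes.

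Genes around urate and the molybdenum cofactor that Xdh needs were higher in 8 of 9 cases, with a median of 0.42. Mocs1, which acts early in making the cofactor, gave 8.12, 8.47 and 8.15 on wild-type arrays, against 8.69, 8.70 and 8.45 on VDR-null arrays, a difference of 0.37 ± 0.13 (SE; limma adjusted p = 0.683). Mocos, the sulfurase that activates Xdh, differed by 0.71 ± 0.34 and the urate carrier Slc2a9 by 0.56 ± 0.25 (limma adjusted p = 0.683 for both). In 6 of the 9 genes the replicate 1 arrays held the extremes in the brush border order. Leaving out wild-type replicate 1 gave a median of 0.31 with 7 genes higher. Leaving out VDR-null replicate 1 gave 0.26 with 9 higher, and leaving out both gave 0.13 with 8 higher.

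Pyrimidine breakdown and salvage split 6 higher and 4 lower of 10 tested, with a median of 0.13. In 6 of the 10 the replicate 1 arrays held the extremes in the brush border order, and without both the median was 0.02, with 5 genes higher. Upp1, the uridine phosphorylase, had the widest difference of the list. It gave 6.72, 7.38 and 7.01 on wild-type arrays, against 8.18, 7.77 and 7.48 on VDR-null arrays, a difference of 0.77 ± 0.23 (SE; unadjusted p = 0.0115 and adjusted p = 0.683 in limma), or 1.71-fold, and 0.43 without both replicate 1 arrays. Its arrays did not overlap, nor did those of the uridine-cytidine kinase genes Uck1 (0.14 ± 0.09) and Uckl1 (0.12 ± 0.08), together 3 genes or 30% of a short list of 10, against 11.1% of all tested genes. Over all pathway lists, 5 of the 66 tested genes did not overlap, all of them in this list or in purine breakdown and salvage. Tk2, the mitochondrial thymidine kinase, differed by -0.15 ± 0.09 (limma adjusted p = 0.683). Purine synthesis genes lay on the other side, with 9 of 11 lower and a median of -0.19. Ppat, the first committed enzyme of the pathway, differed by -0.35 ± 0.19 and Paics by -0.30 ± 0.17 (limma adjusted p = 0.683 for both). In 6 of these 11 genes wild-type replicate 1 was the highest and VDR-null replicate 1 the lowest array, and the median was 0 without both, with 6 of 11 genes higher.

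**Figure D5:**
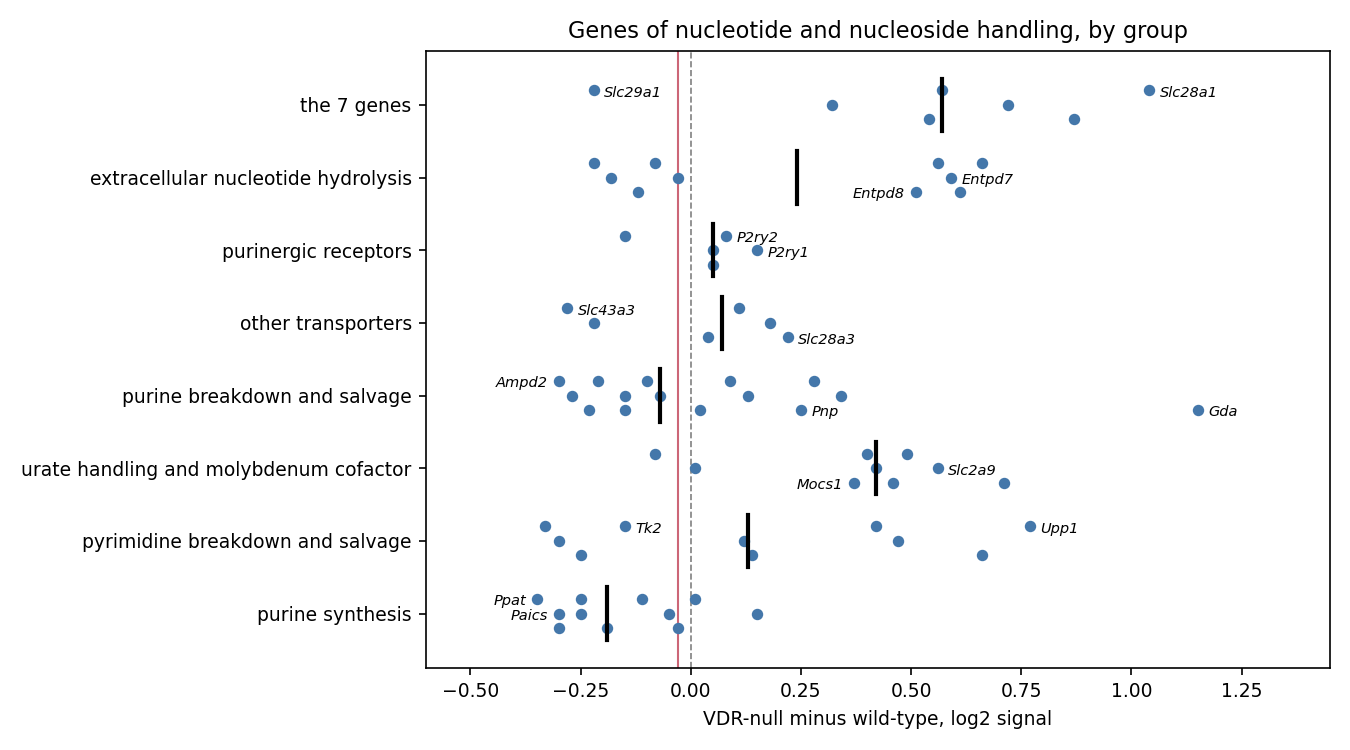
VDR-null minus wild-type difference in log2 signal (horizontal axis) for every tested gene of the 7 and of each pathway list; black bars are list medians and the red line is the median of all tested genes, -0.03. The 7 genes have a median of 0.57, urate and cofactor genes 0.42 and purine synthesis genes -0.19, and no gene shown passed the limma threshold.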

How the data were processed

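Array signals of 6 duodenum samples were analysed, 3 per genotype, grouped by the sample titles. The deposited values are log2 signals made by the authors with RMA; the submitters' processing notes name Affymetrix Expression Console without a version. The log base is taken as 2 because RMA uses it and the values span 1.99 to 13.8. Of 41345 probe sets 23521 carried 1 gene symbol in the platform annotation and were named; 1814 had several symbols, and 16010 had none. 1 probe set per gene, that with the highest mean, and the filter given above left 13174 genes. The test was limma's (version 3.58.1, R 4.3.3), with lmFit and eBayes, genotype as the only term, two-sided p-values adjusted by Benjamini-Hochberg over all of them at a threshold of 0.05. Pathway lists were described by counts and medians, and marker lists by their mean on each array. Upstream sequences are from RefSeq, GRCm38.p6. The members and lists were chosen with earlier results of these data known. Named genes were the 7, Vdr, the 2 with the smallest p of each pathway list and the 3 closest in pattern to each of the 7; others named were chosen after their values were seen or stand for a list. The procedure was tested on simulated data. The number of arrays limits the precision. Same-numbered arrays of the genotypes did not deviate together (r of deviations -0.62, 0.19 and -0.26). The replicate 1 arrays, at opposite ends of the first principal component, weigh on these values, which therefore cannot exclude a pairing. The sample titles state none, and the arrays were treated as unpaired. Alternatives changed the filter, normalization, prior, weights, arrays, covariate and probe set rule.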

Additional observations from a re-analysis of the deposited data

How the results depend on the processing

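No gene of the table and none of the 7 passed the limma threshold under the alternatives run, including a threshold of 0.1, where the count over all genes was 0 as well. The lowest adjusted p of the 7 was 0.306, for Slc29a1 with array weights, and Slc29a1 kept its sign under all 19 alternatives. Array weights turned Slc28a2 to -0.19 and lowered Ada from 0.72 to 0.11, Nt5e from 0.32 to 0.03, Enpp3 from 0.87 to 0.42 and Slc28a1 from 1.04 to 0.63. The mean of both probe sets of Slc29a1 gave -0.08 in place of -0.22. The other filters, normalizations, priors and probe set rules kept every sign. With each array left out in turn the difference ran from -0.15 to 1.54 for Ada, -0.22 to 0.70 for Nt5e, 0.08 to 1.75 for Slc28a1, -0.32 to 1.18 for Slc28a2, -0.31 to -0.10 for Slc29a1, -0.07 to 1.61 for Enpp3 and 0.07 to 0.90 for Xdh. From 3 to 6 genes were then higher in VDR-null duodenum. Between 0 and 2 did not overlap: Slc29a1 without wild-type replicate 2, and Slc29a1 and Xdh without VDR-null replicate 3, where 31.7% and 34% of all genes did not overlap. Without wild-type replicate 1, Ada and Enpp3 were each -0.07; without VDR-null replicate 1, Ada was -0.15, Nt5e -0.22 and Slc28a2 -0.32. Without both replicate 1 arrays the differences were -0.94 for Ada, -0.20 for Nt5e, -0.65 for Slc28a1, -0.74 for Slc28a2, -0.79 for Enpp3 and -0.24 for Xdh, with 0 genes higher and 1, Slc28a2, not overlapping (29% of all genes). With VDR-null replicate 3 left out too, Ada was -0.16, Slc28a2 -0.40 and Enpp3 -0.04, with 3 genes higher and 3 not overlapping (68.2% of all genes); this alternative was added after seeing the data. With the brush border mean in the model as a covariate they were -0.94 for Ada, -0.05 for Nt5e, -0.75 for Slc28a1, -0.57 for Slc28a2, -0.89 for Enpp3 and -0.32 for Xdh, with 0 genes higher. The replicate number as a block left the differences as they were (0.72 for Ada, 1.04 for Slc28a1) and the lowest adjusted p of the 7 at 0.831; it changed no call, and its count of genes at an unadjusted p under 0.05 was 338 against 689. That count was also 1278 with no filter, 2718 with array weights, 416 with the covariate, 1089 with all probe sets, 372 without both replicate 1 arrays, and 284 to 1569 with 1 array left out. With all 6 arrays required above the median, Slc28a1 was not tested. The cause of these changes was not tested. Signal over background limits Slc28a1, which lay below the median of the table on wild-type replicate 1.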
